A study of Homo sapiens with 6 samples.

Results

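The transcripts of 10 very long human genes were examined: WWOX, FHIT, MACROD2, IMMP2L, DMD, LRP1B, CSMD1, PTPRD, DLG2 and AUTS2. They were chosen by symbol as genes of great genomic length, many of them at common fragile sites, and 9 of the 10 had a row among the 21301 genes of the table. CSMD1 was not analysed here. The RNA came from SH-SY5Y, an established human neuroblastoma cell line with neuronal features. One group of cultures received siControl and the other siPSF, a small interfering RNA against the RNA-binding protein PSF (gene SFPQ), each at 10 nM for 72 h, and 3 libraries were sequenced per group. The labels name no other change to the line in either group, and SFPQ RNA was lowered rather than removed.

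Common fragile sites are chromosome regions that form gaps or breaks when DNA replication is slowed, and several of them coincide with a single very large gene. Such genes consist almost entirely of introns, so RNA polymerase II has to travel a long way and the spliceosome has to join exons that lie far apart before a mature mRNA is made. PSF is a nuclear protein of paraspeckles that binds RNA and takes part in transcription and splicing, and many genes of this size encode adhesion, synaptic or scaffold proteins of neurons.

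The genes spanned from 900 kb (IMMP2L) to 2299 kb (PTPRD) in RefSeq on GRCh38.p14. Exons of the GENCODE canonical transcript covered 0.201% (WWOX) to 0.834% (LRP1B) of the span. WWOX (chr16:78099654-79212667, plus strand) had 9 exons and an eighth intron of 779 kb, the longest single intron among them. DLG2 (chr11:83455012-85628373, minus strand), MACROD2 (chr20:13995516-16053197, plus strand), IMMP2L (chr7:110662644-111562492, minus strand) and FHIT (chr3:59747277-61251452, minus strand) each had an intron of over 500 kb as well, of 577, 545, 524 and 523 kb in that order. The splice sites of the introns of DLG2, MACROD2, IMMP2L and FHIT are shown because they mark some of the longest distances that splicing has to bridge in the genes described here. Each sequence runs 5′ to 3′ on the coding strand of hg38 (GRCh38), the donor with 6 exon and 20 intron bases and the acceptor with 40 intron and 6 exon bases, and the capitals mark the GT and AG at the ends of the intron.
DLG2 donor, chr11:85111641-85111666: tgtactGTaagtttgattattccaag
DLG2 acceptor, chr11:84534726-84534771: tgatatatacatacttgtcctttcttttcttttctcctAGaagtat
MACROD2 donor, chr20:14684954-14684979: caaaatGTgagtacaactgaatactg
MACROD2 acceptor, chr20:15229900-15229945: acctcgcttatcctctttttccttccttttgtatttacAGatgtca
IMMP2L donor, chr7:111487218-111487243: attggtGTaagtaactcagaagcata
IMMP2L acceptor, chr7:110963560-110963605: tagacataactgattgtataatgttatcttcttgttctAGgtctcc
FHIT donor, chr3:60536840-60536865: caggacGTatcctttctttttttttt
FHIT acceptor, chr3:60014147-60014192: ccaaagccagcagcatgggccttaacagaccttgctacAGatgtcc
All 4 introns shown began with GT and ended with AG. Pyrimidines filled 20 of the 20 bases before the closing AG in DLG2, 17 in MACROD2, 15 in IMMP2L and 12 in FHIT. After its GT, the FHIT donor differed from the other donors shown, which read GTaagt or GTgagt. Whether the FHIT intron is spliced in the same way was not examined, so these counts give no ranking. These letters are a description of the reference sequence and were not measured in the cells.

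The siRNA target was lower in the libraries labelled siPSF. SFPQ stood at 372, 356 and 401 CPM (counts scaled to a common library size by edgeR's TMM method) in the siControl libraries and at 209, 193 and 165 CPM in the siPSF libraries. Its log2 fold change was -0.99 ± 0.10 (SE), with an adjusted p of 9.5e-05 in edgeR's quasi-likelihood test. All 9 noradrenergic neuroblastoma markers had a row, with 2 lower and 1 higher after siPSF, and their summed FPKM (fragments scaled by exon length and by mapped reads) ran from 1662 to 1918 in siControl and from 1405 to 1807 in siPSF. The mesenchymal markers (4 of 5 with a row) summed to 7.14 to 10.3 FPKM in siControl and 6.96 to 7.71 in siPSF, while 1 of 3 immune and 1 of 4 muscle markers had a row, and the glial markers GFAP, AQP4 and MBP, the immune markers PTPRC and CD3E and the muscle markers MYOD1, MYOG and CKM had none. None of the mesenchymal, immune or muscle markers with a row passed the test, and the part of cell composition in the changes below was not tested. In bulk RNA, fewer cells that express a gene and less RNA per cell cannot be told apart. Library totals lay between 101540520 and 132420931 counts.

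All 9 very long genes with a row were lower in siPSF, and 8 of them passed the test. The group consisted of WWOX, FHIT, MACROD2, IMMP2L, DMD, LRP1B, PTPRD and AUTS2, with DLG2 the exception, and 0 rose. Across the 19694 genes tested with edgeR's quasi-likelihood test, 8.27% were lower and 6.65% were higher at an adjusted p under 0.05. In all 9 genes each siPSF library lay below each siControl library, a pattern found in 17.8% of the genes tested. The median log2 fold change of the 9 genes was -0.90, against 0.01 over all genes. The medians within the single siPSF libraries, relative to the siControl mean, were -0.93, -0.94 and -1.14. The number of very long genes that passed was lowest without siControl replicate 3, at 4 (WWOX, FHIT, IMMP2L and AUTS2). It was 6 without siControl replicate 2, and 7 or 8 without any other library. Lower calls over all genes also went from 1628 to 1022 without siControl replicate 3 and to 928 without siControl replicate 2. The log2 fold changes of all 9 genes stayed negative in every one of these fits.

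**Figure D1:**
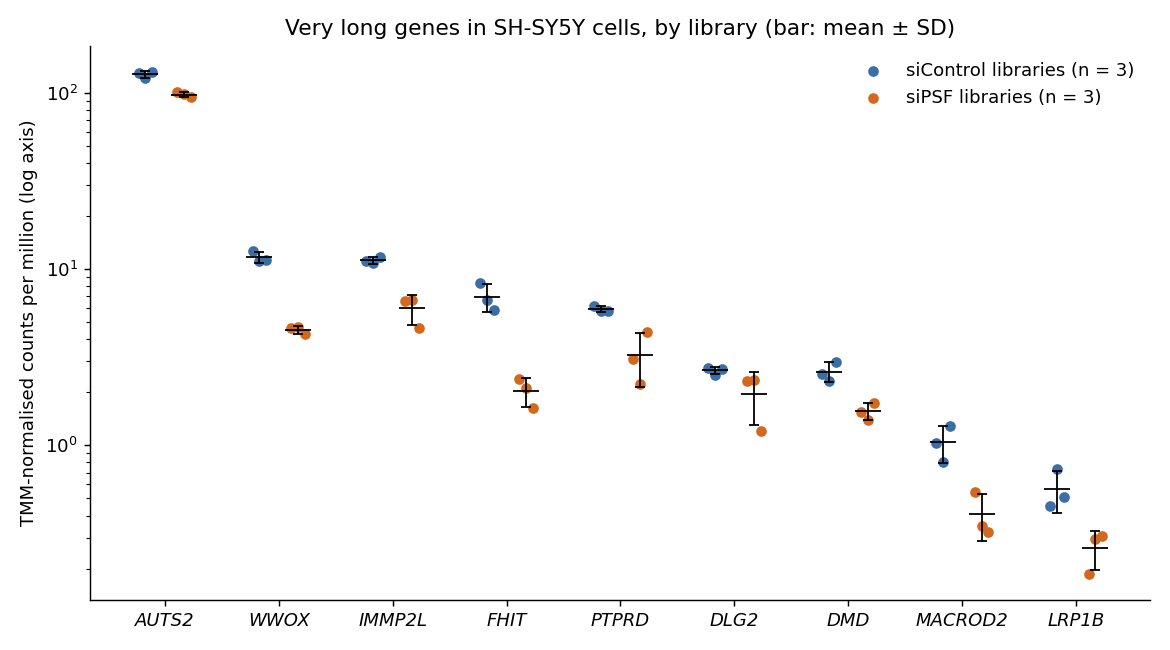
TMM-normalised CPM on a log axis for the 9 very long genes, with 1 point per library (blue siControl, orange siPSF, 3 each) and black bars for mean ± SD. In every gene the 3 siPSF points lie below the 3 siControl points, and the levels run from about 127 CPM for AUTS2 to 0.565 CPM for LRP1B in siControl.

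The first group of genes encodes enzymes and enzyme-like proteins at fragile sites. WWOX, an oxidoreductase with WW domains at fragile site FRA16D, measured 12.6, 11.1 and 11.3 CPM in siControl and 4.65, 4.66 and 4.27 CPM in siPSF. The siPSF libraries lay close together and far under the lowest siControl library. WWOX fell by 1.36 ± 0.12 (SE) on the log2 scale, to 38.9% of the siControl level, with an adjusted p of 4.5e-05 in edgeR's test.

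FHIT, a dinucleoside triphosphate hydrolase at fragile site FRA3B, measured 8.38, 6.71 and 5.84 CPM in siControl. It measured 2.37, 2.11 and 1.62 CPM in siPSF. Its siControl libraries were spread more widely than those of WWOX, and the groups did not overlap. FHIT had the largest fall of the 9 genes, of 1.77 ± 0.18 (SE) on the log2 scale, to 29.2%, with an adjusted p of 1.2e-04 in edgeR's test.

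MACROD2, a macrodomain protein that removes ADP-ribose from proteins, lies at chr20:13995516-16053197 and was expressed at a low level. It measured 1.04, 0.802 and 1.29 CPM in siControl and 0.547, 0.350 and 0.325 CPM in siPSF. The gap between the lowest siControl and the highest siPSF library was smaller than the range within siControl. MACROD2 fell by 1.34 ± 0.28 (SE) on the log2 scale with an adjusted p of 0.0082 in edgeR's test, which became 0.051 without siControl replicate 3.

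IMMP2L is a subunit of the peptidase that trims proteins at the mitochondrial inner membrane, and it lies at fragile site FRA7K. It measured 11.0, 10.8 and 11.7 CPM in siControl and 6.62, 6.70 and 4.64 CPM in siPSF. One siPSF library lay below the other two, and the groups did not overlap. IMMP2L fell by 0.90 ± 0.15 (SE) on the log2 scale, to 53.5%, with an adjusted p of 0.0017 in edgeR's test.

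The other genes encode membrane, cytoskeletal, synaptic or nuclear proteins. LRP1B, a large endocytic receptor of the LDL receptor family (chr2:140231423-142131016, minus strand, 91 exons), was the least abundant, with 0.452, 0.735 and 0.508 CPM in siControl. It had 0.185, 0.294 and 0.304 CPM in siPSF. These values rest on raw counts of 55, 98 and 64 against 22, 31 and 30, so LRP1B was the least precisely measured of the 9. LRP1B fell by 1.12 ± 0.32 (SE) on the log2 scale with an adjusted p of 0.033 in edgeR's test. The call was lost without siControl replicate 2 (0.15), siControl replicate 3 (0.070) or siPSF replicate 1 (0.12).

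PTPRD, a receptor tyrosine phosphatase that organises synapses (chr9:8314246-10613002, minus strand), measured 6.20, 5.77 and 5.80 CPM in siControl and 3.08, 2.24 and 4.41 CPM in siPSF. The siControl libraries were close together and the siPSF libraries were spread more widely, below them. PTPRD fell by 0.87 ± 0.20 (SE) on the log2 scale with an adjusted p of 0.014 in edgeR's test, which rose to 0.051 and 0.060 without siControl replicates 2 and 3.

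DLG2, a scaffold protein of the postsynaptic density also called PSD-93, measured 2.75, 2.52 and 2.72 CPM in siControl and 2.32, 2.35 and 1.21 CPM in siPSF. One siPSF library was low and the other two lay just under the siControl libraries. The log2 fold change was -0.44 ± 0.23 (SE), with an adjusted p of 0.22 in edgeR's test. Without siPSF replicate 3, the low library, the log2 fold change was -0.19 with an adjusted p of 0.48.

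AUTS2, a nuclear protein linked to neuronal development (chr7:69598475-70793506, plus strand), was by far the most abundant. It measured 129, 120.5 and 131 CPM in siControl and 100.4, 97.7 and 94.6 CPM in siPSF. Its groups were well separated relative to their spread although the change was the smallest of the 9. AUTS2 fell by 0.38 ± 0.08 (SE) on the log2 scale, to 76.9%, with an adjusted p of 0.0073 in edgeR's test.

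DMD encodes dystrophin, which ties the actin cytoskeleton to the membrane, and at chrX:31119222-33339388, minus strand it had 79 exons. It measured 2.55, 2.31 and 2.98 CPM in siControl and 1.55, 1.39 and 1.73 CPM in siPSF. The groups were separate, with 0 overlapping libraries. DMD fell by 0.74 ± 0.18 (SE) on the log2 scale with an adjusted p of 0.015 in edgeR's test, which became 0.065 without siControl replicate 3.

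For DMD the deposited count and the deposited FPKM gave different sizes of change. DMD measured 0.307, 0.337 and 0.509 FPKM in siControl and 0.121, 0.0870 and 0.147 FPKM in siPSF. After FPKM was rescaled to the same sum in each library, the log2 ratio of the group means was -1.82, against -0.74 from the counts. These scalings are centred differently: the median log2 fold change of all genes tested was -0.16 on rescaled log2(FPKM + 0.5) and 0.01 with counts. The ratio of count to FPKM, relative to the siControl mean, was 1.18, 0.964 and 0.860 in siControl and 1.75, 2.16 and 1.59 in siPSF. The fold limit was set on the mean ratio of the siPSF libraries. Of 14209 genes whose count was 100 or higher in each library, 0.0352% (5 genes) had a mean over 1.5-fold higher with no overlap. DMD was 1 of them. Of the 7 very long genes that met this minimum, DMD was the only such case. In the other direction, 10 genes were lower by over 1.5-fold with no overlap. In siPSF, WWOX (0.872, 0.799 and 0.709) was lower and IMMP2L (1.05, 1.04 and 1.10) higher with no overlap, both short of that fold. MAGI2, a 1437 kb fragile-site gene outside the list, was another of the 5. Its ratio was 0.959, 0.980 and 1.06 in siControl and 1.11, 1.22 and 2.62 in siPSF, so only siPSF replicate 3 was over 1.5. The direction, the fold and the minimum were chosen after these values were seen. At a minimum of 200 counts, the one applied first, 0.0152% of 13115 genes passed, MAGI2 among them. DMD, with 147 counts in its lowest library, was below that minimum. FPKM depends on the transcript lengths assigned to a gene, and DMD has long and short transcripts; which of them were counted was not examined.

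**Figure D2:**
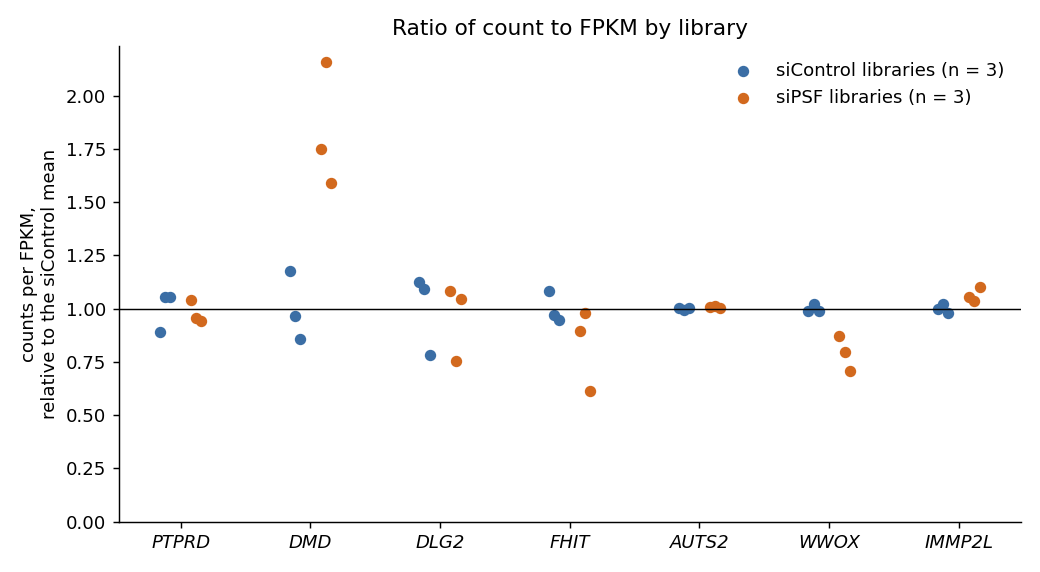
Deposited count divided by deposited FPKM in each library (blue siControl, orange siPSF, 3 each), scaled per library and set relative to the siControl mean, for the 7 very long genes whose count was 100 or higher in each library. DMD lies between 1.59 and 2.16 in siPSF, WWOX lies between 0.709 and 0.872, and AUTS2 stays near 1.

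Levels between genes were compared per length, in siControl FPKM. AUTS2 was highest at 16.9 (15.9 to 17.9 over the 3 libraries), followed by IMMP2L at 5.52 ± 0.472 (SD, n = 3) and WWOX at 5.09 ± 0.423, whose libraries overlapped. FHIT came next at 2.22 ± 0.214. The remaining genes were all under 1 FPKM: PTPRD at 0.499, DMD at 0.384, DLG2 at 0.251, MACROD2 at 0.197 and LRP1B at 0.0253. Each neighbour in this lower order overlapped the next except MACROD2 and LRP1B. Across the 9 genes, genomic length and siControl FPKM had a Spearman rho of -0.62, and across 14169 tested protein-coding genes the rho was -0.18. With CPM as the level, which is not scaled by length, the rho was -0.62 for the 9 genes and 0.01 for 14418 protein-coding genes. These are descriptions across genes, which share libraries and are not replicates.

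Genomic length was also set against the change. Among tested protein-coding genes other than the 9, the share that was lower in edgeR's test was 2.98% under 10 kb, 4.3% from 10 to 50 kb, 7.68% from 50 to 100 kb, 17.9% from 100 to 250 kb and 35.4% from 250 to 500 kb. It was 60.4% of 187 genes from 500 to 1000 kb and 51.1% of 45 genes of 1000 kb or more, and the median log2 fold change went from 0.08 in the shortest class to -0.89 in the longest. Of the 9 very long genes, 8 belong by length to the class of 1000 kb or more, and IMMP2L to the class below. Their median of -0.90, with 8 of the 9 lower, stands beside -0.89 for the 45 other genes of that longest class. Over all 232 other protein-coding genes that span 500 kb or more, 136 (58.6%) were lower, 4 were higher and the median was -0.69. Ordered by fall among all 241, FHIT ranked 14, WWOX 36, MACROD2 40 and LRP1B 63, IMMP2L 93, PTPRD 100, DMD 112, DLG2 161 and AUTS2 170.

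**Figure D3:**
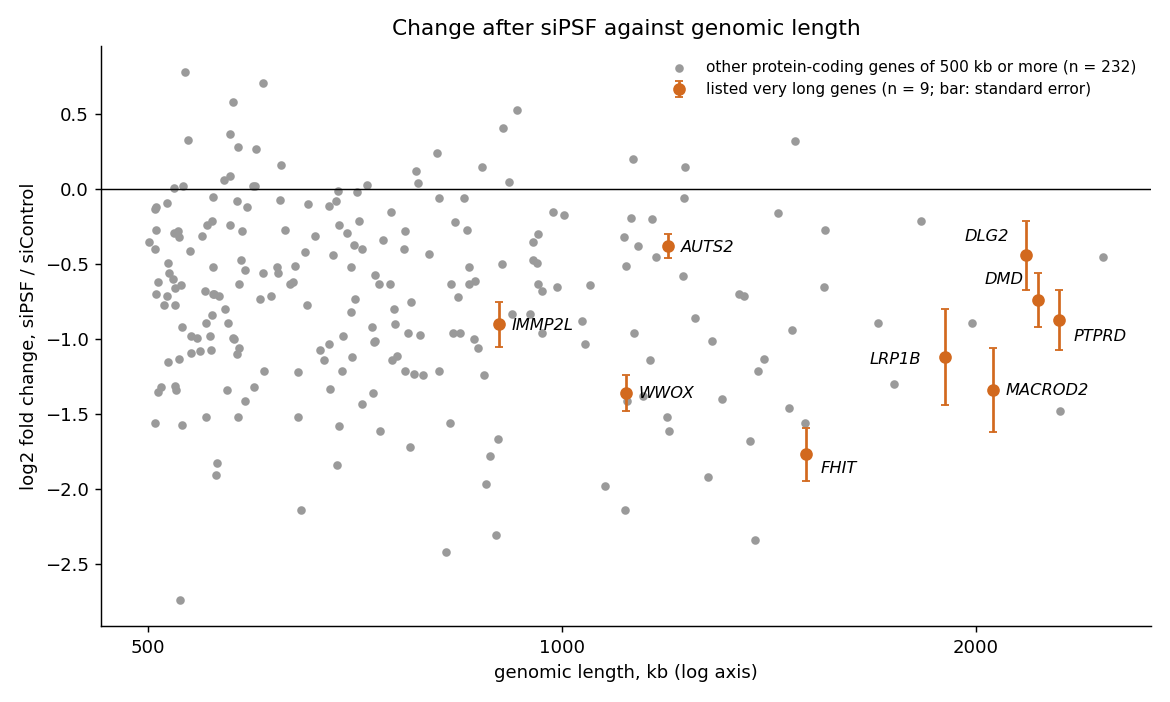
Log2 fold change (siPSF over siControl) from edgeR against genomic length in kb on a log axis, with the 9 very long genes in orange (bars: standard error) and 232 other protein-coding genes of 500 kb or more in grey. The orange points all lie below 0, from -0.38 for AUTS2 to -1.77 for FHIT, within the range of the grey points.

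Length did not order the 9 genes among themselves in the same direction. Their Spearman rho of genomic length with log2 fold change was 0.32, while that of the longest intron was -0.47 and that of exonic length 0.43. Among 230 other long genes the rho was -0.10 for genomic length and -0.37 for the longest intron, and among 14169 protein-coding genes it was -0.30 and -0.28. The genes with the smallest falls illustrate the spread: AUTS2 is longer than WWOX, with a longest intron of 301 kb against 779 kb, and DLG2 has the second longest intron of the 9.

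The very long genes were set against their paralogues, related genes that arose by duplication and are mostly shorter. Of the 16 paralogues tested, 3 were lower (MACROD1, DRP2 and CSMD2), 0 were higher and the median log2 fold change was -0.03. For FHIT, HINT1, HINT2 and HINT3, other histidine triad proteins, had log2 fold changes of 0.04, -0.21 and 0.28. UTRN, which encodes the dystrophin relative utrophin, had 0.06 although it spans 568 kb. PTPRF and PTPRS had 0.17 and -0.03, LRP1 had -0.07, and DLG1, DLG3 and DLG4 had -0.03, 0.18 and -0.11. IMMP1L had -0.28, FBRSL1 0.09 and FBRS -0.01, and none of these paralogues passed edgeR's test.

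MACROD1 and DRP2 were lower, as were their long relatives. MACROD1, of 168 kb, fell by 1.27 ± 0.15 (SE) on the log2 scale with an adjusted p of 2.9e-04 in edgeR's test, beside 1.34 for MACROD2. DRP2, of 44.7 kb, fell by 0.74 ± 0.14 (SE) with an adjusted p of 0.0037, beside 0.74 for DMD. CSMD2, of 652 kb, fell by 0.77 ± 0.21 (SE) with an adjusted p of 0.026, and it passed in 3 of 6 fits with a library left out (highest adjusted p 0.12, without siControl replicate 2). In 13 of 15 pairs the per-library log2 ratio of gene to paralogue was lower in all siPSF libraries than in all siControl libraries, with an exact two-sided permutation p of 0.1, the smallest that 3 against 3 libraries allow (0.12 after Benjamini-Hochberg adjustment over the 15 pairs). The pairs are not independent, since FHIT and DLG2 each enter 3 of them, and the 3 with DLG2 are counted although DLG2 itself did not pass. No background share was computed for such ratios. All 9 very long genes were already lower with no overlap on their own, so this count is not separate support. The exceptions were MACROD2 with MACROD1 (difference of log2 fold changes -0.09) and DMD with DRP2 (0.01), each with an exact permutation p of 1.

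**Figure D4:**
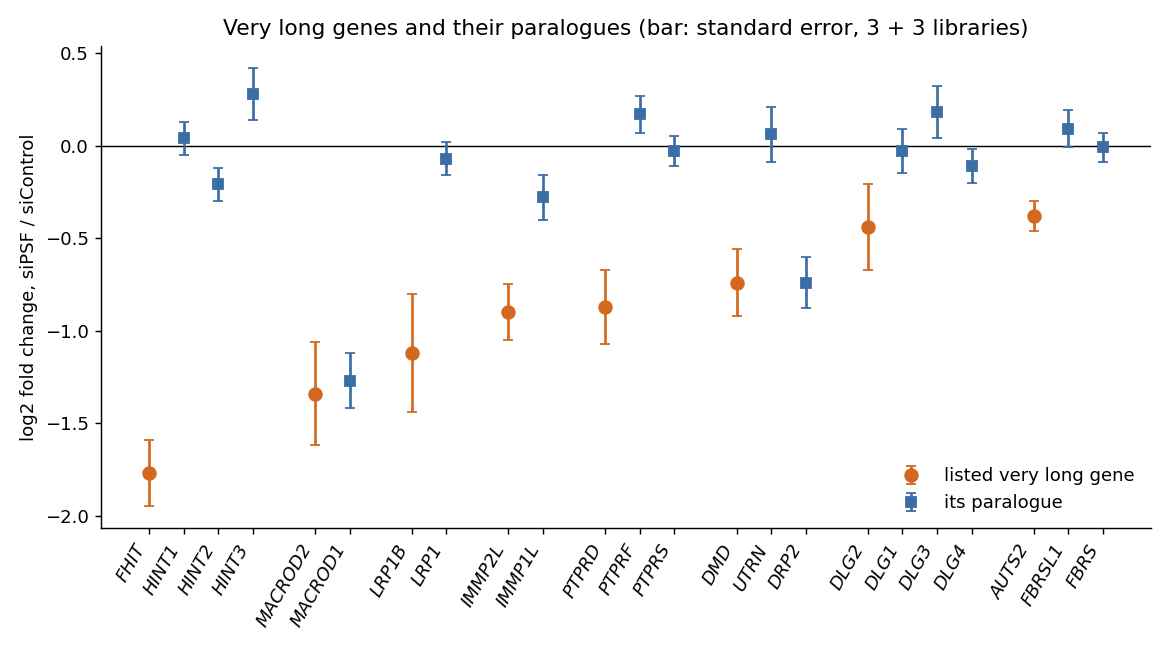
Log2 fold change (siPSF over siControl) from edgeR for 8 very long genes (orange circles) and their tested paralogues (blue squares), with standard errors. The blue squares lie near 0 except MACROD1 at -1.27 and DRP2 at -0.74.

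Genes inside and beside the 9 were examined next. Of 6 genes of the table inside a very long gene, 5 were tested and 1 was called. LRRN3, a neuronal leucine-rich repeat membrane protein of 34.3 kb on the strand opposite to IMMP2L, stood at 123, 116 and 135 CPM in siControl and at 201, 171 and 217 CPM in siPSF. It rose by 0.66 ± 0.10 (SE) on the log2 scale with an adjusted p of 0.0013 in edgeR's test, while its host IMMP2L fell by 0.90. FLRT3, opposite in strand to MACROD2, had 2.43 ± 0.606 (SD, n = 3) CPM in siControl and 3.32 ± 1.26 CPM in siPSF, a log2 difference of 0.45 ± 0.26 (SE) that did not pass (adjusted p of 0.28 in edgeR's test). The other 4 were under 1 CPM. The sample labels name a stranded library kit, the study's methods name a TruSeq kit that does not mark strand, and neither says whether counting used strand. LRRN3 (chr7:111091127-111125454) lies wholly within intron 3 of the canonical IMMP2L transcript (chr7:110963566-111487237), so no exon of that transcript overlaps it. Reads of LRRN3 and of unspliced IMMP2L RNA, or of FLRT3 and MACROD2, cannot be told apart where the genes overlap.

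Of the 18 nearest tested protein-coding genes on both sides, 3 were lower, 0 were higher and the median log2 fold change was -0.02. Both neighbours of FHIT were lower: CFAP20DC by 0.43 ± 0.13 (SE) with an adjusted p of 0.037, and PTPRG, a 736 kb phosphatase gene, by 0.63 ± 0.15 with an adjusted p of 0.013 in edgeR's test. GTDC1 beside LRP1B fell by 0.47 ± 0.12 with an adjusted p of 0.021. These 3 calls did not hold in every fit with a library left out. Without siControl replicate 3, 0 of them remained, and only PTPRG remained without siControl replicate 2 or siPSF replicate 2. Their log2 fold changes stayed between -0.73 and -0.36 in these fits. Lower calls over all genes went from 1628 to 1022 without siControl replicate 3, 928 without siControl replicate 2 and 1305 without siPSF replicate 2. The other 15 had log2 fold changes between -0.42 (NXPH2) and 0.81 (SPDYE21). VAT1L and DYNLRB2 beside WWOX had -0.13 and 0.08, NDUFAF5 and KIF16B beside MACROD2 had -0.25 and -0.03, DNAJB9 and DOCK4 beside IMMP2L had 0.26 and -0.16, and TAB3 and MAGEB16 beside DMD had 0.02 and -0.37. DMAC1 and TYRP1 beside PTPRD had 0.14 and 0.36, CCDC90B and TMEM126B beside DLG2 had 0.32 and 0.29, and TYW1B beside AUTS2 had -0.02.

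**Figure D5:**
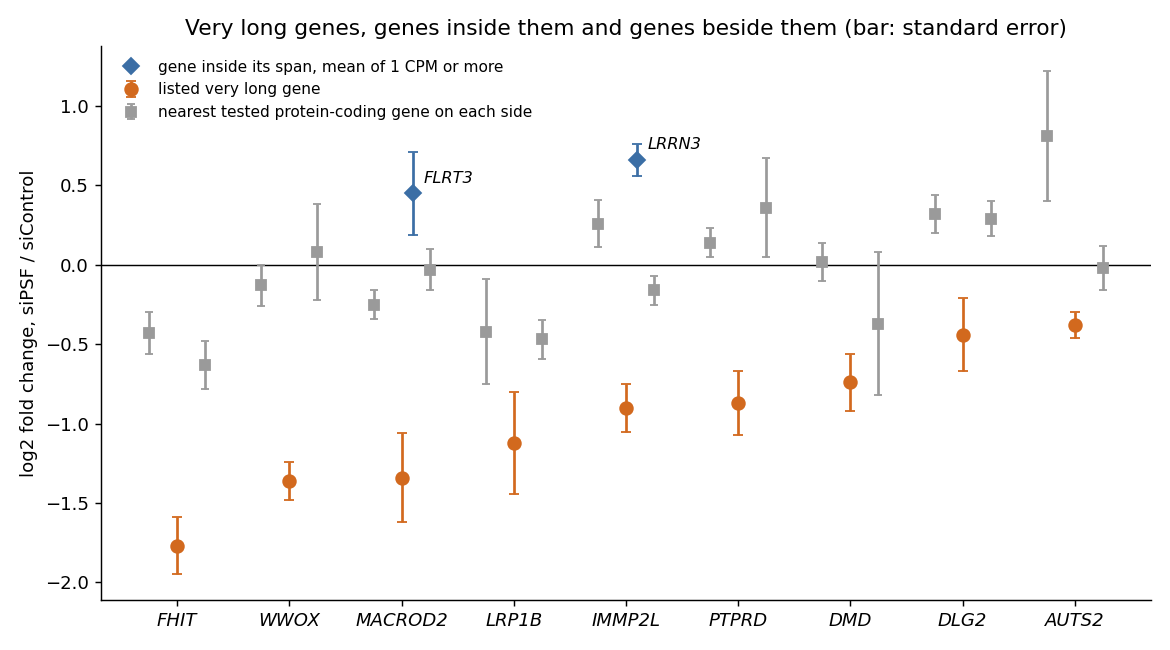
Log2 fold change (siPSF over siControl) from edgeR for each very long gene (orange), the nearest tested protein-coding gene on either side (grey) and genes inside its span with a mean of 1 CPM or more (blue), with standard errors. The very long genes lie at or below -0.38, LRRN3 lies at 0.66 inside IMMP2L, and the grey squares lie between -0.63 and 0.81.

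Other large genes at common fragile sites were listed for comparison. Of 19 listed, 16 were tested, 8 (50%) were lower, 0 were higher and the median log2 fold change was -0.60. The share lower was 8.27% over all genes tested. It was 58.6%, with a median of -0.69, among the other protein-coding genes of 500 kb or more, a set that overlaps this list. The largest falls were those of NAALADL2 (1370 kb, -1.68), LSAMP (643 kb, -1.52), CNTNAP2 (2304 kb, -1.48), THSD7A (462 kb, -1.33) and SDK1 (968 kb, -0.96). That of NAALADL2 (SE 0.39) rests on raw counts of only 21, 29 and 34 in siControl against 9, 7 and 6 in siPSF. Of the tested genes of this list over 1000 kb, only NAALADL2 and CNTNAP2 were called. PDE4D (1553 kb, -0.27), DAB1 (1552 kb, -0.65), CCSER1 (1478 kb, 0.32), MAGI2 (1437 kb, -0.16), GPHN (1227 kb, -0.06) and ERBB4 (1163 kb, -0.20) did not pass edgeR's test. Among the other protein-coding genes of 500 kb or more, the called genes with the largest falls included ARHGAP24 (-2.74), INPP4B (-2.42), CNTNAP5 (-2.31) and NRG3 (-2.14). ARHGAP24 (SE 0.47) had raw counts of only 34, 66 and 71 in siControl against 4, 5 and 12 in siPSF. The largest rises were those of PALM2AKAP2 (0.78), PRELID2 (0.71) and PCDH9 (0.53). The 4 rises did not hold in every fit with a library left out. Without siControl replicate 2, 0 long genes were higher, and 2 were higher without siControl replicate 3. Higher calls over all genes went from 1310 to 572 and 732 in those fits, in that order. PALM2AKAP2 passed in 3 of 6 fits with a library left out. In the dystrophin complex, which anchors dystrophin at the membrane, 11 of 16 listed partners were tested and only SNTB2, a syntrophin, was lower (log2 fold change -0.35, called in 1 of 6 fits that each left out a library), with 0 higher and a median of -0.09.

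The genes whose log2 CPM over the 6 libraries was most like the mean of the 9 were SUPT3H, PARD3B, PRKCA, CNTNAP2 and CRACD. Their Pearson r with that mean was 0.9986, 0.9985, 0.9980, 0.9980 and 0.9977 among 14672 candidates whose mean reached 1 CPM. The 6 libraries form 2 separate groups, so r here only ranks likeness. SUPT3H fell by 0.80, PARD3B by 1.98, PRKCA by 1.35, CNTNAP2 by 1.48 and CRACD by 0.94 on the log2 scale.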

How the data were processed

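RNA of 6 SH-SY5Y libraries (3 siControl, 3 siPSF) was measured by poly(A)-selected RNA-seq. The authors deposited 1 table with a raw read count per gene and library, not normalized. The authors also deposited an FPKM value per gene and library. Per the submitters' processing notes, Trimmomatic, HISAT2 2.1.0, StringTie 2.1.3b and GRCh38 were used, whereas the study's methods name Bowtie 2, TopHat, hg38 and RefSeq. No per-sample column was left unused. The smallest count is 1, so genes without a read in a library were not analysed here. Nothing used here states more than biological triplicates, and p-values measure the spread between these libraries.

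Counts were filtered (filterByExpr), scaled by TMM (factors 0.964 to 1.053) and tested with edgeR 4.0.16's quasi-likelihood test without a block; Benjamini-Hochberg adjustment covered all 19694 genes tested, and a gene was called at an adjusted p under 0.05. The smallest chi-square per degree of freedom between replicates was 21.7, so no libraries were alike within sampling noise. The biological coefficient of variation was 12.6%. The fit was tested on simulated data. Gene positions came from RefSeq GRCh38.p14 by gene ID (20822 of 21301 rows, 97.8%), exons and introns from GENCODE 44 and sequence from hg38. Alternatives used DESeq2 1.42.0 and limma 3.58.1 (R 4.3.3; log2 of FPKM plus 0.5, genes of a mean of at least 0.5); Python 3.11.15 with scipy 1.17.1 did the rest. The fit of limma on log2 of rescaled FPKM plus 0.01 without a minimum, and the ratio of count to FPKM, were added after the data were seen.

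Named were all members, SFPQ, paralogues, genes inside a member with at least 1 CPM, flanking genes, the 5 largest called falls and 3 largest rises of each list, and the 5 genes most like the members' mean. PDE4D, DAB1, CCSER1, MAGI2, GPHN and ERBB4 were named after their values were seen. Of the 5 largest falls among the other long genes, 1 is not reported here, nor are 1 marker gene and the splice sites of 1 intron. The members and lists were chosen with earlier results of these data known.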

Additional observations from a re-analysis of the deposited data

How the results depend on the processing

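The log2 fold changes of the 9 very long genes kept their sign under every alternative in which they were tested. With the replicate block, unfiltered counts, size factors from DESeq2 or its Wald test, 8 passed; leaving out each library gave 4 to 8. On log2(FPKM + 0.5), unscaled or rescaled, only 4 of the 9 reached the minimum FPKM, and 4 were called; on rescaled log2(FPKM + 0.01), 7 of 9 passed. Rescaled FPKM moved the median log2 fold change of all genes to -0.16, with 88% of calls lower (55.4% with counts). That setting gave 3409 lower and 463 higher genes, 5 lower paralogues, 4 lower dystrophin partners and 0 higher genes of 500 kb or more; unscaled FPKM gave 736 higher genes and 1 higher long gene. Against 1628 lower and 1310 higher genes in all, leaving out a library gave 928 to 1735 and 572 to 1405. Leaving out a library gave 0 to 4 higher long genes, 0 to 3 lower and 0 to 1 higher flanking genes, and 0 to 1 lower dystrophin partners. Without the filter 0 dystrophin partners passed. The limit on length moved the number of lower long genes from 136 to 333 at 250 kb and to 23 at 1000 kb. Over protein-coding genes, rho with log2 fold change was -0.26 for exonic length, and rho of genomic length with level was 0.01 for CPM. The causes of these differences were not tested.

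The replicate numbers are not stated to mark a shared culture or day, so they were not taken to pair samples. Deviations of same-numbered libraries correlated at -0.03, 0.23 and 0.10, which does not settle whether they were paired. The replicate block gave 8 of the very long genes, 1 higher flanking gene and 0 dystrophin partners. LRP1B and MACROD2 had only 22 and 32 counts in their lowest libraries.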
